A study of Mus musculus with 12 samples.

Results

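The genes of mouse chromosomes 8, 9 and 13 were followed along their length in 4 fibroblast lines, because on these 3 chromosomes the median expression ratio between the knockout clones PKO-1 and PKO-6 lay away from 0. The chromosomes were selected on the ratio of PKO-1 to PKO-6 in these same libraries. For that reason this ratio and the ratios of each clone to the other lines are a description, and calls that involve a clone are counted without drawing support from them. Members were the genes annotated on these chromosomes with a mean of 50 or more counts over the 12 libraries. There were 1773 such genes of 24453 in the count table, with 630 on chromosome 8, 662 on chromosome 9 and 481 on chromosome 13. The table held 3470 genes on the 3 chromosomes (1175, 1358 and 937). Pgbd1 on chromosome 13 (mean count 50.9) and Exph5 on chromosome 9 (51.1) were just inside the minimum, and Foxq1 on chromosome 13 (49.6) and 0610038B21Rik on chromosome 8 (49.3) were just outside.

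The study measured total RNA by rRNA-depleted, strand-specific RNA sequencing in mouse embryonic fibroblasts (MEFs). The knockout clones lacked PNPase, the RNA-processing enzyme encoded by Pnpt1, and the rho0 line lacked mitochondrial DNA but kept PNPase. The study reports that the knockout clones had lost mitochondrial DNA as well, so every derived line lacked it. All 4 lines came from TM6, a C57BL6/J MEF line homozygous for a floxed Pnpt1 allele (Pnpt1 neo-flox/neo-flox) and immortalised with SV-40 large T antigen, and all were kept in medium with 50 µg/mL uridine. Untreated TM6 was the parental control. The rho0 line was TM6 after 3 weeks in 750 ng/mL ditercalinium, which removes mitochondrial DNA, and was then isolated as a colony from a single cell. Transduction of TM6 with adenoviral Cre recombinase gave the knockout colonies, also each from a single cell, of which PKO-1 (clone 1) and PKO-6 (clone 6) were sequenced. Each derived line was thus 1 clone, grown as 3 cultures, so a difference between lines cannot be told apart from a difference between the cells that founded them. The p-values below measure the spread between cultures of a line and not between clones.

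A diploid cell carries a pair of each autosome, and transcript output of most genes on a segment tends to follow the number of copies of that segment, so a gain or loss of DNA is often seen in RNA as a modest shift shared by neighbouring genes. Immortalised mouse fibroblasts commonly depart from a diploid set of chromosomes, and clones drawn from such a culture can differ in the copies they carry. The start of mouse chromosome 9, which holds Birc2, Birc3 and Yap1, is known for copy gains in mouse tumours, and chromosome 13 holds the largest cluster of replication-dependent histone genes (Hist1). The paper reports that a further knockout clone was left out of its RNA analyses, since cell cycle profiling had shown aneuploidy (data not shown there). For TM6, rho0, PKO-1 and PKO-6 it shows flow cytometry profiles of cells stained for DNA, without copy numbers of single chromosomes. DNA copy number was not measured here, and its part in the RNA differences was not tested.

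Library totals ran from 47164860 to 67991378 counts (median 55405646), with no replicate pair indistinguishable by counting noise, and the 45S pre-rRNA entry Rn45s took 12.2 to 19.6% of a library. Pnpt1, on chromosome 11, stood at 2832, 3242 and 3319 normalized counts in TM6, 1254, 1191 and 1276 in PKO-1 and 1897, 1720.4 and 2214 in PKO-6, and thus fell in both clones but did not reach 0 in the gene-level counts, which sum over all exons. Of 10 fibroblast markers, 7 to 9 were at 1 TPM or more in each line, with Thy1 and Lum near 0 in most, and their summed level was 4580 to 4852 TPM in TM6, 3284 to 3357 in rho0, 4272 to 4462 in PKO-1 and 2431 to 2651 in PKO-6. Markers of epithelial, endothelial, leukocyte, muscle and fat cells summed to at most 20.1 TPM per cell type in any library.

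Among the members named below, 4 genes with a promoter entry had 3 or fewer counts in every library of one clone, and their promoters are shown because these genes were nearly without counts there. The other clone was far higher at Cyba, Foxf2 and Dcdc2a but had few counts at Foxd1, which met the minimum for named genes only through TM6. Cyba, which encodes a subunit of the NADPH oxidase, was nearly without counts in PKO-6. Foxf2, a forkhead transcription factor gene of mesenchyme, was likewise nearly without counts in PKO-6. Foxd1, another forkhead factor gene, and Dcdc2a, which encodes a doublecortin-domain protein that binds microtubules, were nearly without counts in PKO-1. The sequences run 5′ to 3′ from 250 bases before to 50 bases after the RefSeq start on GRCm38.p6, and capitals mark each CG dinucleotide, the site of DNA methylation in mammals. The windows are chr8:122432891-122433190 on the minus strand for Cyba, chr13:31625566-31625865 on the plus strand for Foxf2, chr13:98353995-98354294 on the plus strand for Foxd1 and chr13:25055754-25056053 on the plus strand for Dcdc2a.
Cyba: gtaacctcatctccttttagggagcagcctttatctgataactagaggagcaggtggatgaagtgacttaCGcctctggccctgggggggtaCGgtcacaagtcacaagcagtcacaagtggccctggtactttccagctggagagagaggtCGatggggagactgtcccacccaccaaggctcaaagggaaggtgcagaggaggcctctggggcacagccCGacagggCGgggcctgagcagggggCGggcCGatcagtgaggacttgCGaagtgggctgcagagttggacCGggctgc
Foxf2: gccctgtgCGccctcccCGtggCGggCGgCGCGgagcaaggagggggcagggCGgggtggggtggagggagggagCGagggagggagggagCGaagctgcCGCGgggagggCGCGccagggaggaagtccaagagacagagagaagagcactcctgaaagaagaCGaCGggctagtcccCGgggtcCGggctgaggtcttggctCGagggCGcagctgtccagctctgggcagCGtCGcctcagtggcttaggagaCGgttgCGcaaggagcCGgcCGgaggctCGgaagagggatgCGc
Foxd1: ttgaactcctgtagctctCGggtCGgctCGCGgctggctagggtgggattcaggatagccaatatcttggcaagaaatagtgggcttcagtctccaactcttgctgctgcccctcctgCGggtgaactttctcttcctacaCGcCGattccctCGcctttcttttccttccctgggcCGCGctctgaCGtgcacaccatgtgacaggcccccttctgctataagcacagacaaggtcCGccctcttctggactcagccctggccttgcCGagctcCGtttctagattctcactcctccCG
Dcdc2a: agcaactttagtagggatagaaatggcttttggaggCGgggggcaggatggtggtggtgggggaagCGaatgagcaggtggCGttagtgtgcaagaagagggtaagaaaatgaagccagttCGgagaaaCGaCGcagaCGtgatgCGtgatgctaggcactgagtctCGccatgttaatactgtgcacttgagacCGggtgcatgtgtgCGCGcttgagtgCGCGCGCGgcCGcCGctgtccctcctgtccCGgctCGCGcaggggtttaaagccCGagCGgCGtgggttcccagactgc

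The 4 promoters differed widely in CG content. Cyba held 9 CG dinucleotides, a number that 45.8% of the 32851 mouse promoters of this length in RefSeq reached, and their median was 7. Foxd1 held 15, a number that 34.6% of promoters reached, Dcdc2a held 24, and Foxf2 held 27, which 15.5% of promoters reached. The count is a description of the letters, and methylation was not measured.

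Along whole chromosomes, PKO-1 was higher than PKO-6 on chromosome 8 and lower on chromosomes 9 and 13. The median log2 ratio of PKO-1 to PKO-6, taken over members from mean normalized counts with 0.5 added, was 0.34 on chromosome 8, where 487 of 630 members (77.3%) were higher in PKO-1. It was -0.36 on chromosome 9, where 546 of 662 were lower, and -0.37 on chromosome 13, where 361 of 481 were lower. These medians correspond to ratios of 1.27, 0.782 and 0.773. Each PKO-1 library taken alone against the mean of PKO-6 gave 0.35, 0.36 and 0.35 on chromosome 8, -0.36, -0.36 and -0.36 on chromosome 9 and -0.36, -0.39 and -0.41 on chromosome 13, so the 3 cultures of a clone gave nearly the same value. Over all 11894 genes at the same minimum the median was 0.02, and on the other 17 chromosomes it ran from -0.16 (chromosome 10) to 0.22 (chromosomes 16 and X).

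Set against the parental line and rho0, the 3 chromosomes showed different patterns. On chromosome 9, PKO-6 lay at the level of TM6 (median log2 ratio 0.00) and near rho0 (-0.05), while PKO-1 was lower than TM6 (-0.38) and lower than rho0 (-0.42). On chromosome 13, PKO-6 was again close to TM6 (0.06) and rho0 (0.03), and PKO-1 was below them (-0.27 and -0.32). Chromosome 8 had no such pair of like lines. There PKO-6 was below TM6 (-0.45) and below rho0 (-0.27), PKO-1 was slightly below TM6 (-0.09) and above rho0 (0.11), and rho0 itself was below TM6 (-0.20). In order of median level, chromosome 8 thus ran from TM6 through PKO-1 and rho0 to PKO-6. Medians away from 0 were not confined to these chromosomes: on the other 17, the ratio to TM6 ran from -0.74 (X) to 0.59 (12) in PKO-1, from -0.91 (X) to 0.52 (12) in PKO-6 and from -0.82 (X) to 0.54 (12) in rho0. The ratio to rho0 there ran from -0.19 (chromosome 4) to 0.35 (5) in PKO-1 and from -0.13 (7) to 0.32 (15) in PKO-6.

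**Figure D1:**
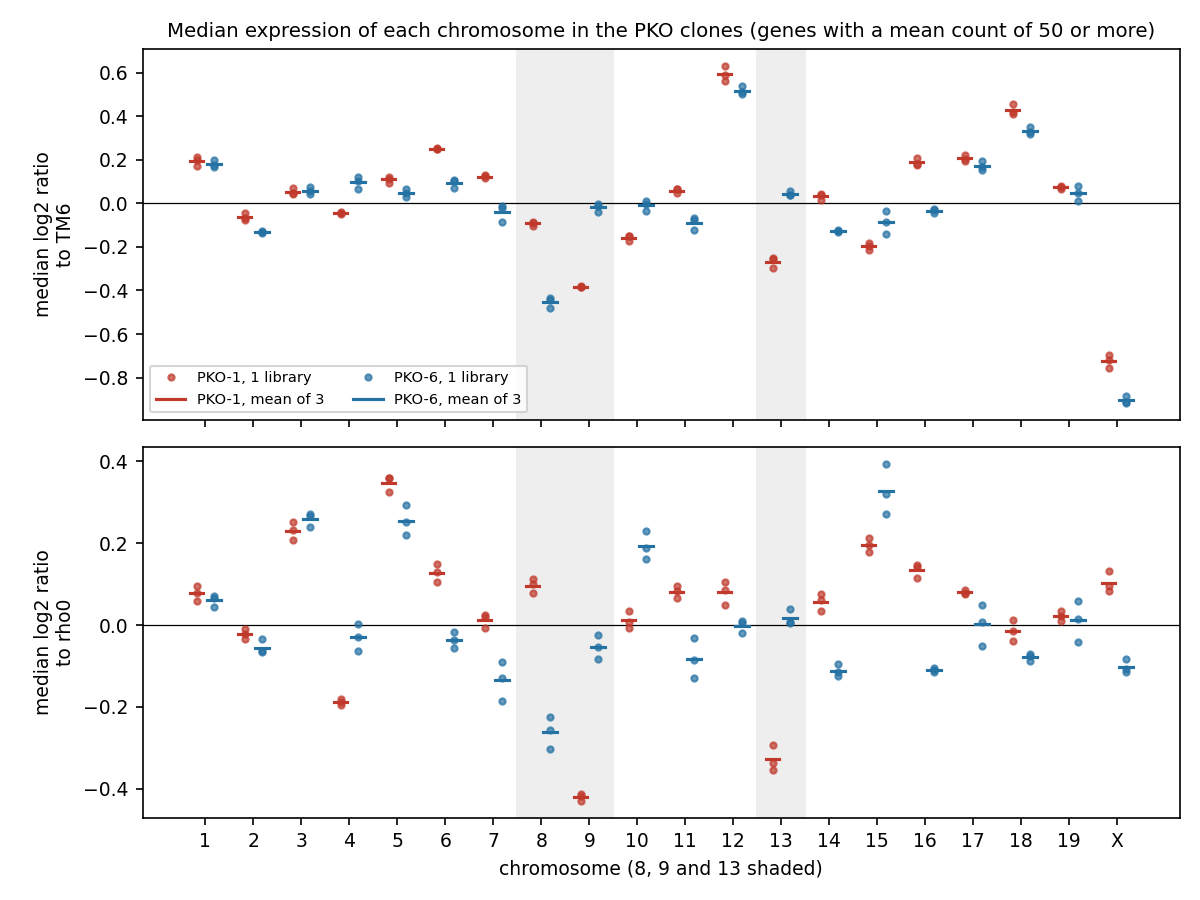
Median log2 ratio of PKO-1 and PKO-6 to TM6 (upper panel) and to rho0 (lower panel) for each chromosome, over genes with a mean of 50 or more counts, with 1 point per library of the clone, marks at the mean of 3 libraries, and chromosomes 8, 9 and 13 shaded. In both panels PKO-6 lies below PKO-1 on chromosome 8, and PKO-1 lies below PKO-6 on chromosomes 9 and 13, where PKO-6 is close to 0.

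The share of a library's counts (without Rn45s) that fell on each chromosome went the same way between the clones. It adds no support, since the same counts chose the chromosomes. Chromosome 9 took 4.57 to 4.63% of counts in PKO-1, 5.75 to 5.78% in PKO-6, 6.01 to 6.10% in TM6 and 6.24 to 6.45% in rho0. Chromosome 8 took 3.91 to 3.94% in PKO-1, 3.15 to 3.21% in PKO-6, 4.28 to 4.34% in TM6 and 3.77 to 3.84% in rho0. On chromosome 13 the shares were 3.41 to 3.51% in PKO-1, 3.89 to 4.08% in PKO-6, 4.14 to 4.24% in TM6 and 3.79 to 3.98% in rho0. The libraries of the clones did not overlap in any of these shares, and on chromosome 13 PKO-6 and rho0 did overlap. In every library the share of PKO-6 was below that of TM6 on chromosomes 9 and 13, although its median ratios there were level with or close to TM6.

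In windows of 10 Mb, the ratio of PKO-1 to PKO-6 kept its sign over the whole of chromosomes 8 and 9, whereas chromosome 13 changed near its end. All 13 windows of chromosome 8 were above 0, from 0.23 (20 to 30 Mb, 49 members) to 0.67 (50 to 60 Mb, 11 members), and the next highest was 0.47. Its 24 windows of 5 Mb were all above 0 too but spread more widely, from 0.02 (100 to 105 Mb) to 0.70 (55 to 60 Mb). All 13 windows of chromosome 9 were below 0. The window of the first 10 Mb was at -1.04, and the other 12 ran from -0.43 to -0.23. Chromosome 13 had 10 of 12 windows below 0, from -0.58 (60 to 70 Mb), and the last windows were at 0.10 (100 to 110 Mb) and 0.04 (110 to 120 Mb). A window was said to stand apart when its median differed by more than 0.2 from that of its chromosome, which held for 1 window of chromosome 8, 1 of chromosome 9 and 4 of chromosome 13 (20 to 30, 60 to 70, 100 to 110 and 110 to 120 Mb).

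The same windows set against TM6 and rho0 showed which line departed where, and the counts that follow are for windows of 10 Mb. On chromosome 8, PKO-6 was below TM6 in 13 of 13 windows (-0.80 to -0.29) and below rho0 in 13 of 13 (-0.37 to -0.16), while PKO-1 was above rho0 in 13 of 13 (0.01 to 0.32) and on either side of TM6 (-0.19 to 0.11). On chromosome 9, PKO-1 was below TM6 in 13 of 13 windows (-0.51 to -0.20) and below rho0 in 13 of 13 (-0.55 to -0.19). PKO-6 stood at 0.90 against TM6 and 1.00 against rho0 in the first 10 Mb of chromosome 9, and in the other 12 windows it stayed between -0.13 and 0.10 against TM6 and between -0.19 and 0.04 against rho0. On chromosome 13, PKO-6 stayed within -0.09 and 0.10 of rho0 in all 12 windows, and PKO-1 ran from -0.63 to 0.12 against rho0. Against TM6, PKO-6 ran there from -0.27 (20 to 30 Mb) to 0.39 (60 to 70 Mb). In the same windows rho0 had its extremes against TM6, -0.37 and 0.40, and PKO-1 ran from -0.53 to 0.12 against TM6. PKO-6 and rho0 thus departed from TM6 together in parts of this chromosome. With smaller windows some of these signs changed. On chromosome 8, PKO-1 was below rho0 in 2 of 24 windows of 5 Mb (lowest -0.24) and in 7 of 25 windows of 25 members (lowest -0.21), and PKO-6 was above rho0 in 1 of the 24 windows of 5 Mb (0.01). On chromosome 9 PKO-1 stayed below TM6 and rho0 in all 25 windows of 5 Mb and all 26 of 25 members, while on chromosome 13 PKO-6 against rho0 ran from -0.16 to 0.26 in windows of 5 Mb. PKO-6 against TM6 was less even on chromosome 9 than the windows of 10 Mb show. It reached -0.43 in windows of 5 Mb (85 to 90 Mb). In windows of 25 members it reached -0.42, and the highest after the first window was 0.27.

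**Figure D2:**
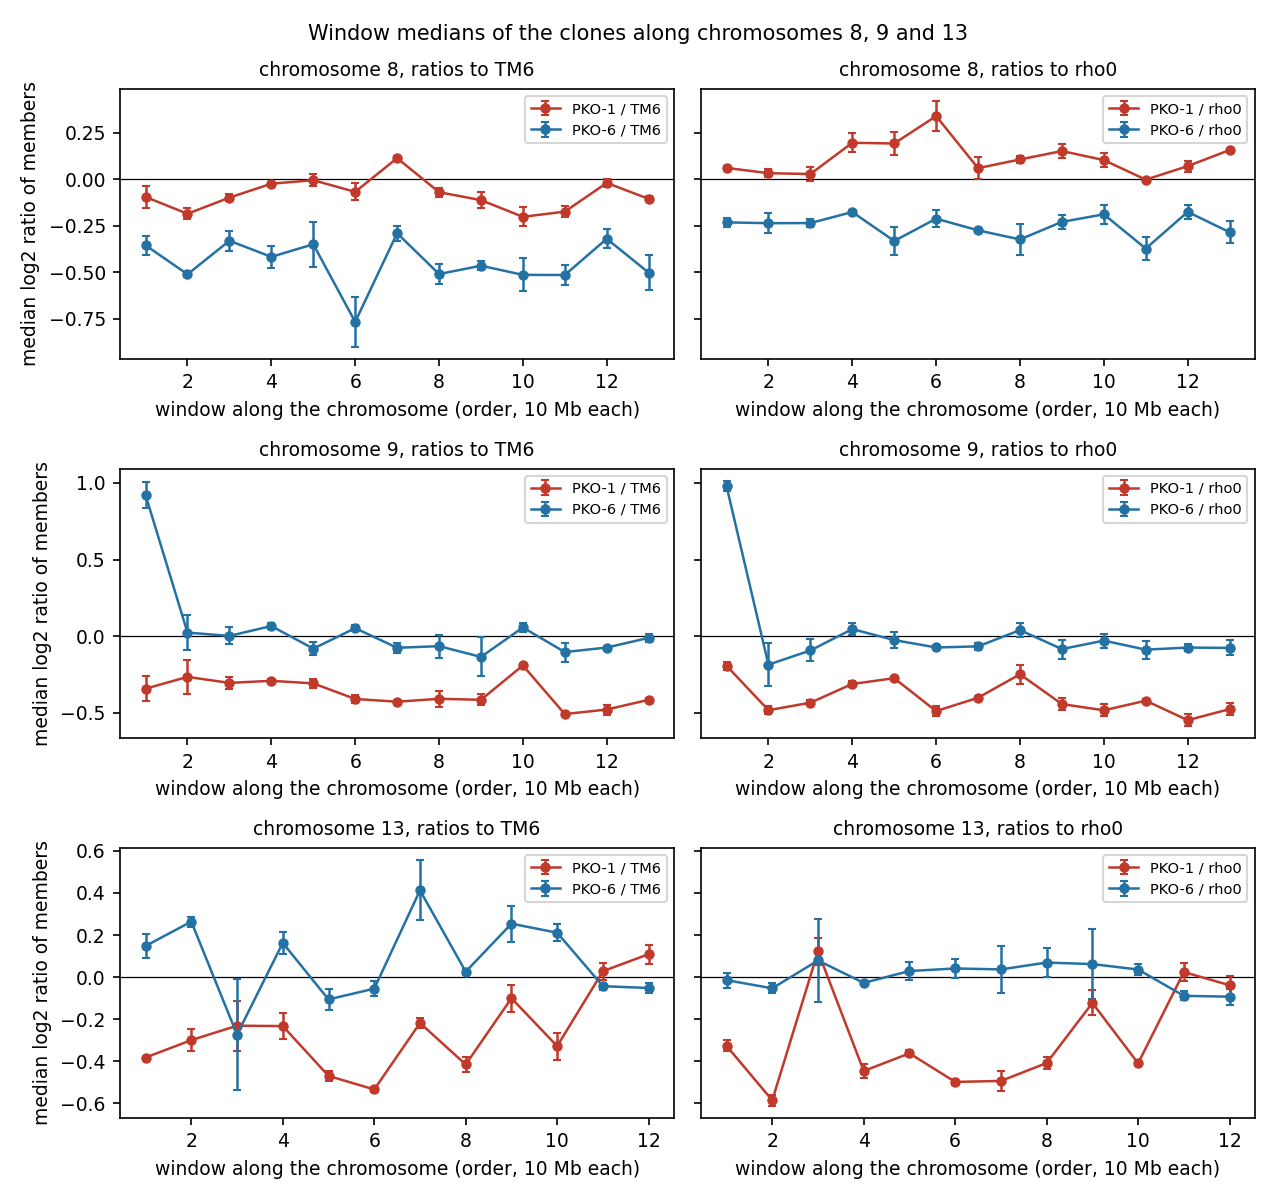
Median log2 ratio of members in 10 Mb windows, in order along chromosomes 8, 9 and 13, for PKO-1 and PKO-6 against TM6 (left) and against rho0 (right), with points at the mean of 3 libraries and bars of 1 SD. PKO-6 is near 1.00 against rho0 in the first window of chromosome 9 and near 0 after it, and the clones meet in the last windows of chromosome 13.

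The first 10 Mb of chromosome 9 was the stretch with the largest difference between the clones, and there it was PKO-6 that stood above the other lines. Its 18 members lay between positions 3335231 and 9239013 on GRCm38. PKO-1 was the lower clone at all 18, and in all 18 the libraries of the clones did not overlap. Over all tested genes, 33.5% were lower in PKO-1 without overlap. The median log2 ratio of PKO-6 to TM6 was 0.90 (libraries 0.86, 0.89 and 1.01) with 16 of 18 members higher, and that of PKO-6 to rho0 was 1.00 (0.96, 1.02 and 0.96) with 18 of 18 higher. PKO-1 was below TM6 at -0.35 and below rho0 at -0.19, against -0.38 and -0.42 over the members after 10 Mb. rho0 against TM6 had a median of -0.04 with 9 members on each side. The next member, Jrkl, began near 13.2 Mb, and the 14 members between 10 and 15 Mb were at -0.28 for PKO-1 against PKO-6, at 0.06 for PKO-6 against TM6 and at -0.14 for PKO-6 against rho0. No member lay in the gap, so the place of the change is known only to within it.

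Several of these 18 genes are known for roles in cell survival and growth. Birc2 encodes the inhibitor of apoptosis cIAP1 (chr9:7818226-7837057, minus strand). It stood at 843, 814 and 955 normalized counts in TM6, 1053, 1142 and 1159 in rho0, 619, 614 and 615 in PKO-1 and 1866, 1777 and 2139.8 in PKO-6. PKO-6 was 2.21 times TM6 and PKO-1 was the lowest line. Birc3, its neighbour, encodes cIAP2 and had 423, 368 and 401 in TM6, 235, 240.4 and 243 in rho0, 78.6, 74.96 and 90.1 in PKO-1 and 680.2, 681 and 665 in PKO-6, a ratio of 8.27 between the clones. Yap1 encodes the transcriptional coactivator restrained by Hippo signalling. Its values were 8321, 8872 and 8865 in TM6, 8600.3, 7802 and 7859 in rho0, 7467, 7329 and 6944 in PKO-1 and 15212, 16336 and 15256 in PKO-6, so that PKO-6 was 1.80 times TM6 and the other lines were close to each other.

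The ratio between the clones was not the same for all 18. It was highest at Cep126, a gene for a centrosomal protein, with 113, 146 and 114 normalized counts in TM6, 400.04, 439 and 437 in rho0, 58.3, 66.03 and 58.95 in PKO-1 and 1109.6, 1094 and 1235 in PKO-6. Mmp3, which encodes the matrix protease stromelysin 1, had 33.3, 12.8 and 23.8 in PKO-1, 214, 294 and 205 in PKO-6, 16.4, 17.2 and 13.96 in TM6 and 0 in all 3 libraries of rho0, which puts PKO-6 at least 222-fold higher than rho0 at a floor of 3 counts over the group. Casp12, an inflammatory caspase gene, had 165, 143 and 137 in PKO-1 and 183, 182 and 196 in PKO-6 against 265, 296 and 265 in TM6 and 66.8, 62.1 and 70.3 in rho0, and alone of the 18 it did not pass the call rule between the clones. Pdgfd, a platelet-derived growth factor gene, and Casp12 were the members of this stretch that were lower in PKO-6 than in TM6. A gene was called at an adjusted p below 0.01 in edgeR's quasi-likelihood test with an absolute log2 fold change above 0.5. By this rule PKO-1 was the lower clone at 17 of the 18, beside 29.1% of all tested genes called in either direction and 17.6% called lower, from which nothing is read since the contrast chose the members. Against TM6, 13 were called higher and 1 lower in PKO-6 (21.9% and 19.4% of all tested genes, 41.3% together), and 1 higher and 7 lower in PKO-1 (16.4% and 17.9%, 34.3% together). Against rho0, 16 were called higher in PKO-6 (13.3% of all tested genes, with 21.5% called in either direction), Casp12 and Pdgfd among them.

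**Figure D3:**
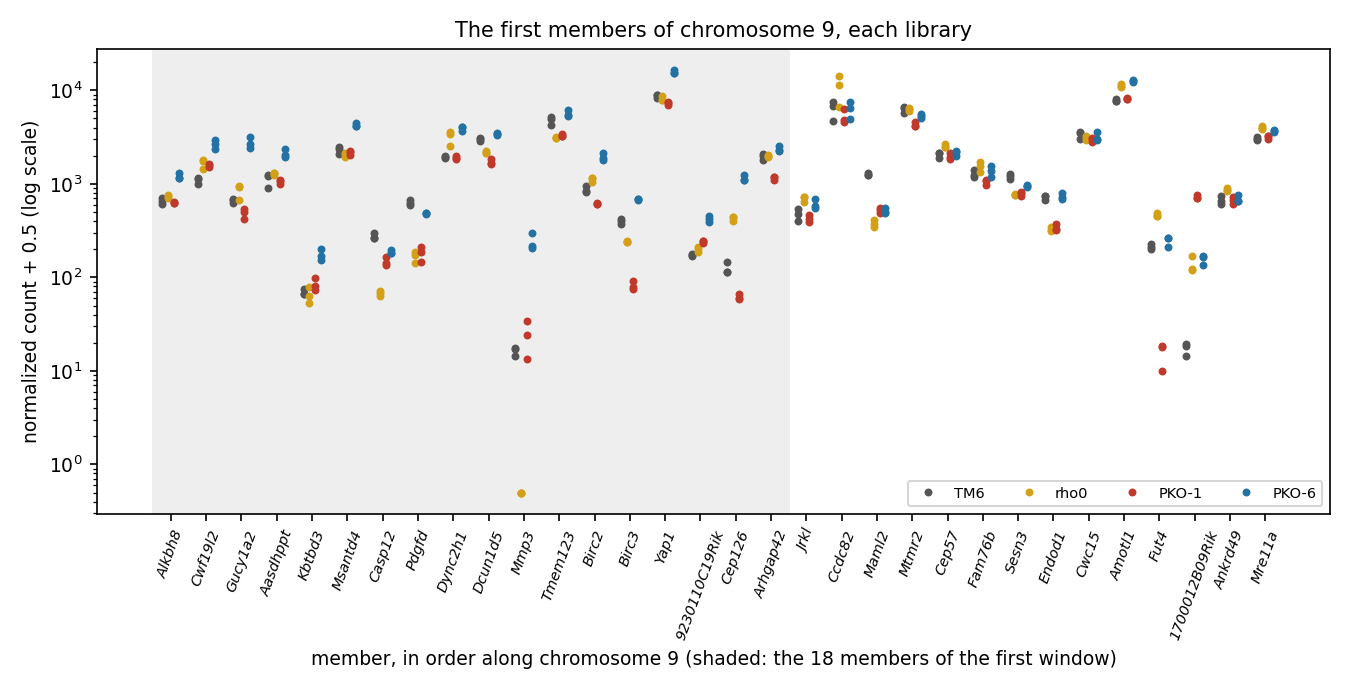
Normalized count plus 0.5, on a log scale, in each of the 12 libraries (1 point each, coloured by line) for the first members of chromosome 9 in order, with the 18 members of the first window shaded. PKO-6 lies above PKO-1 at every shaded member, and Mmp3 is at the bottom of the scale in rho0, where it had no counts.

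On the rest of chromosome 9 the lower level of PKO-1 was shared by most genes but modest. The 644 members after 10 Mb had a median log2 ratio of PKO-1 to PKO-6 of -0.34. Over the whole chromosome, the calls of PKO-1 against PKO-6 were 26 higher and 230 lower, beside 11.5% and 17.6% of all tested genes. PKO-1 against TM6 had 41 called higher and 255 lower, and PKO-1 against rho0 had 30 higher and 271 lower (15.1% and 17.6% of all tested genes, 32.7% together). For PKO-1 against TM6 these were 6.19% and 38.5% of members, beside 16.4% and 17.9% of all tested genes. PKO-6 against TM6 had 128 higher and 131 lower (19.3% and 19.8%), near the 21.9% and 19.4% of all tested genes, and PKO-6 against rho0 had 78 higher and 63 lower (11.8% and 9.52%), near the 13.3% and 8.16% of all tested genes.

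Chromosome 13 fell into a long stretch in which PKO-1 was lower and a final stretch in which the clones were nearly level. The 414 members up to 100 Mb had a median of -0.44 for PKO-1 against PKO-6, with 81 higher and 333 lower, and the 67 members after 100 Mb had a median of 0.07, with 39 higher and 28 lower. Up to 100 Mb, PKO-1 was at -0.31 against TM6 and -0.39 against rho0, and PKO-6 at 0.08 and 0.04. After 100 Mb, PKO-1 was at 0.08 and -0.02 and PKO-6 at -0.05 and -0.09. The step was visible at close range: the 28 members in the 5 Mb before it had a median of -0.34 (3 higher, 25 lower) and the 28 in the 5 Mb after it one of 0.05 (15 higher, 13 lower). The 100 Mb boundary was set after the window values had been seen, so the split is a description. Calls of PKO-1 against PKO-6 numbered 25 higher and 171 lower of 414 up to 100 Mb, and 8 higher and 5 lower of 67 after it (6.04% and 41.3% before, 11.9% and 7.46% after), beside 11.5% and 17.6% of all tested genes, from which nothing is read.

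The last members before the boundary included Map1b, a gene for a microtubule-associated protein and among the 3 members with the most counts on the chromosome. It stood at 30809, 33768 and 33867 normalized counts in TM6, 40403, 47846 and 48824 in rho0, 25041, 26999 and 24128 in PKO-1 and 30501, 30499.6 and 33296 in PKO-6, with PKO-1 lowest and no overlap between the clones. The first members after it were Bdp1, Serf1, Smn1, Naip2, Naip5, Gtf2h2, Rad17 and Taf9, which have roles in transcription, RNA processing, DNA damage signalling and the sensing of bacteria. Naip2 and Naip5 are near-identical copies and their split of reads is uncertain.

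The Hist1 genes stood apart from their neighbours on chromosome 13. They are the 50 replication-dependent histone genes among the members, between positions 21715713 and 23764412, whose transcripts are made in S phase and mostly lack poly(A) tails. Many are near-identical copies, so single members are uncertain. For PKO-1 against PKO-6 their median was 0.19 (libraries 0.12, 0.31 and 0.14), with 36 higher and 14 lower, while the other 28 members of the 20 to 30 Mb window were at -0.67 (-0.63, -0.69 and -0.68), with 1 higher and 27 lower. The window's median of -0.06 thus joined medians of opposite sign. The Hist1 value was the less firm: against TM6 its PKO-1 libraries (-0.32, -0.07 and -0.30) and PKO-6 libraries (-0.40, -0.23 and -0.75) overlapped. Libraries of the clones did not overlap at 14 of the 50 genes, beside 66.5% of all tested genes. Between the clones 5 of the 50 were called, each higher in PKO-1, beside 11.5% of all tested genes. Without the Hist1 genes, the chromosome 13 median of PKO-1 against PKO-6 was -0.44 over 431 members. For rho0 against TM6, which the choice of members did not use, 25 of 50 Hist1 genes were called lower, and their median log2 ratio was -0.54 with 1 higher and 49 lower. The 28 neighbours had 13 called higher and a median of 0.47. Over all tested genes in this contrast 42.1% were called, 20.7% higher and 21.4% lower. The 3 rho0 libraries differed here, at -0.29, -0.74 and -0.64 for the Hist1 median. Hist1h1a, a linker histone gene, stood at 12658, 12522 and 12246 normalized counts in TM6, 7401, 5895 and 6130.4 in rho0, 19813, 21536 and 18094 in PKO-1 and 8792, 9317 and 7294 in PKO-6. It was thus highest in PKO-1, and fell in rho0 against TM6 by 0.95 on the log2 scale (SE 0.10, edgeR adjusted p = 1.39e-06). Its high level in PKO-1 was an exception in the list, since for PKO-1 against TM6 the median of the 50 was -0.23 with 7 higher and 43 lower, and 1 was called higher and 1 lower, beside 16.4% and 17.9% of all tested genes.

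**Figure D4:**
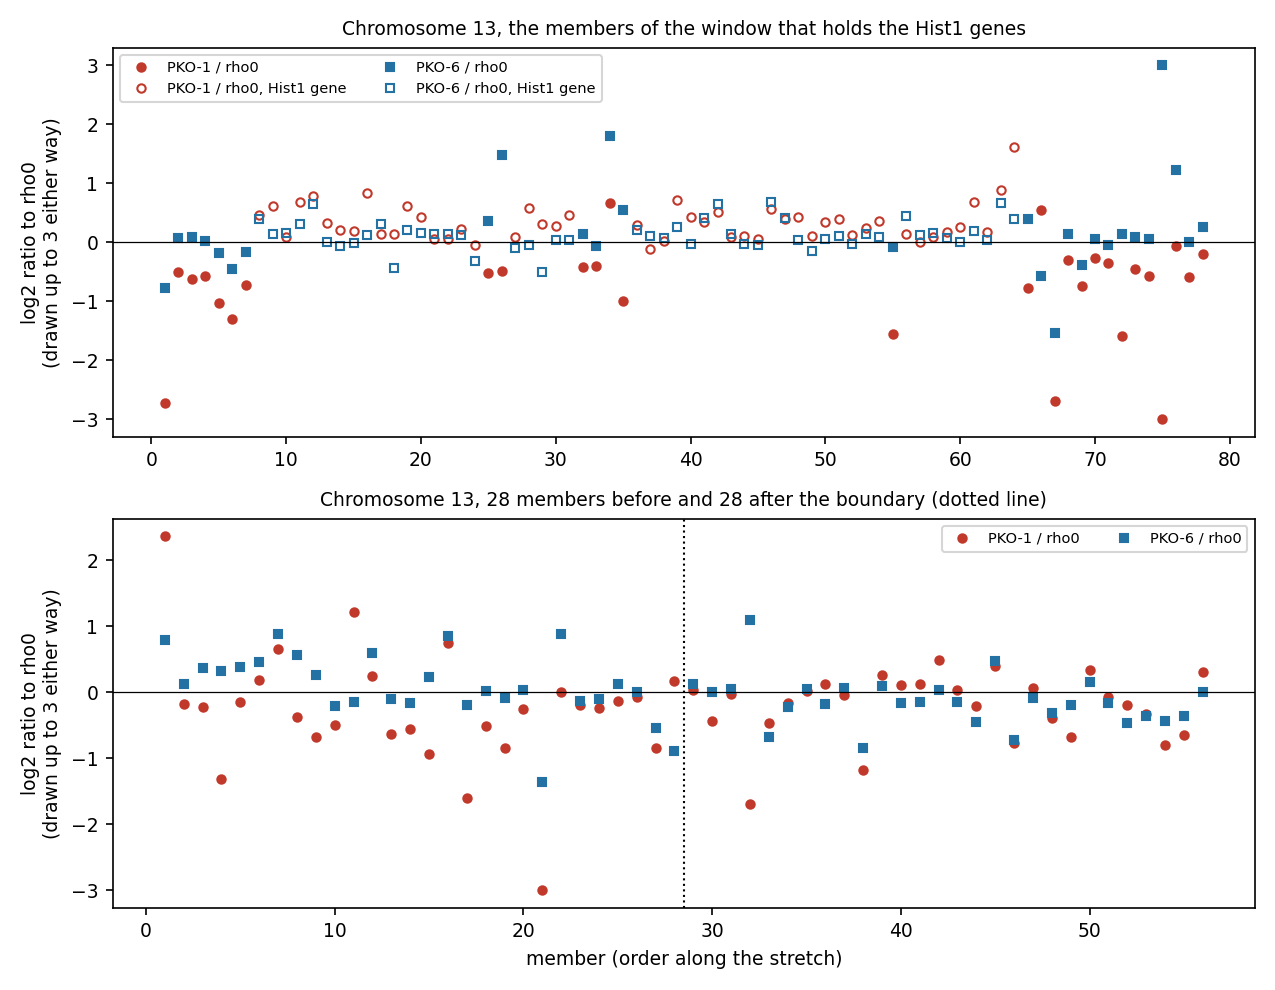
Log2 ratio of PKO-1 (circles) and PKO-6 (squares) to rho0, drawn up to 3 in either direction, for members of chromosome 13 in order, in the window that holds the Hist1 genes (upper panel, Hist1 genes as open symbols) and in 28 members on each side of the boundary near 100 Mb (lower panel, dotted line). PKO-1 lies below PKO-6 at nearly all neighbours of the Hist1 genes but not at most Hist1 genes, and the gap between the clones closes after the dotted line.

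For PKO-1 against PKO-6, chromosome 8 had no such change of sign in windows of 10 Mb or 5 Mb. Calls of PKO-1 against PKO-6 numbered 205 higher (32.5% of members) and 44 lower (6.98%), beside 11.5% and 17.6% of all tested genes, from which nothing is read. Against TM6, PKO-1 had 61 members called higher (9.68%) and 113 lower (17.9%), beside 16.4% and 17.9% of all tested genes, so its share called lower was that of all genes. PKO-6 had 55 higher (8.73%) and 286 lower (45.4%), beside 21.9% and 19.4%. Against rho0, PKO-1 had 101 of 630 higher and 85 lower, near the 15.1% and 17.6% of all tested genes, and PKO-6 had 36 higher and 126 lower, beside 13.3% and 8.16%. The clones share the TM6 and the rho0 libraries in these counts. Chromosome 13 as a whole had, for PKO-1 against PKO-6, calls of 33 higher and 176 lower (6.86% and 36.6%).

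Members spread widely around each median. The interquartile range of the log2 ratio of PKO-1 to PKO-6 was 0.53 on chromosome 8, 0.55 on chromosome 9 and 0.64 on chromosome 13, against 0.61 over all genes at the same minimum. The medians differed with expression level. In the lowest, middle and highest tertile of members by normalized count, the median was 0.15, 0.36 and 0.43 on chromosome 8, -0.57, -0.33 and -0.23 on chromosome 9 and -0.47, -0.44 and -0.13 on chromosome 13, where 37.3% of the highest tertile were higher in PKO-1. The Hist1 genes, which are short and strongly expressed, share with other short transcripts the tertile of least transcript length, whose median on chromosome 13 was -0.16. By GC content of the transcript the medians stayed between 0.30 and 0.43 on chromosome 8, between -0.40 and -0.28 on chromosome 9 and between -0.44 and -0.32 on chromosome 13.

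**Figure D5:**
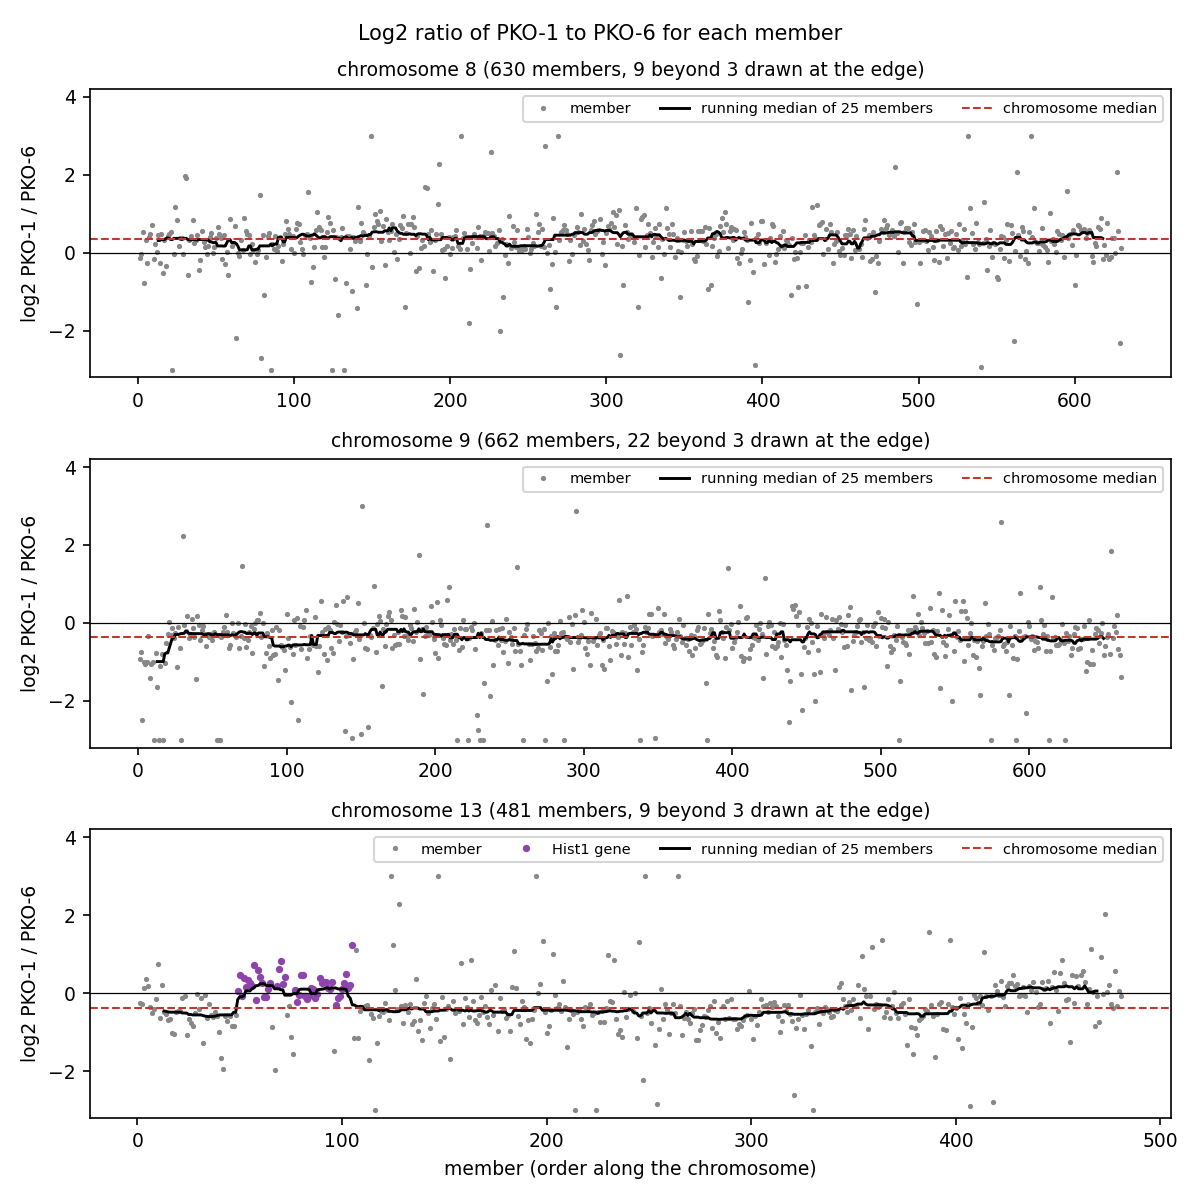
Log2 ratio of PKO-1 to PKO-6 for every member (points) in order along chromosomes 8, 9 and 13, with a running median of 25 members (black), the chromosome median (dashed) and the Hist1 genes in purple; members beyond 3 in either direction (9, 22 and 9 of them) are drawn at 3 or -3. Most points lie above 0 on chromosome 8 and below 0 on chromosomes 9 and 13. On chromosome 13 the running median rises above 0 at the Hist1 genes and to about 0 or above at the end.

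At single genes the clones differed by far more than the chromosome medians, and in either direction. On chromosome 8, Cyba (chr8:122424771-122432940, minus strand) stood at 791, 787 and 673 normalized counts in TM6, 286, 263 and 230.03 in rho0, 490.4, 473 and 487 in PKO-1 and 1.64, 1.04 and 0 in PKO-6. With 1327 counts against 3, PKO-1 was 518 times PKO-6 (exact 95% interval 177 to 2516, counting error only). Sorbs2, a gene for an adaptor of the actin cytoskeleton, had 299.98, 373 and 364 in PKO-1 and 29.5, 25.9 and 38.8 in PKO-6 against 909.6, 1004 and 1028 in TM6. Against the trend of the chromosome, Sfrp1, a gene for a secreted inhibitor of Wnt signalling, was 0 in all 3 libraries of PKO-1 and had 39.3, 45.6 and 49.4 in PKO-6, 3.87, 1.11 and 3.35 in rho0 and 379.6, 369 and 338 in TM6. PKO-6 was at least 40.7-fold higher than PKO-1 at a floor of 3 counts over the group. Sfrp1 met the minimums for members and for named genes only through TM6. Rbpms, a gene for an RNA-binding protein, had 328, 312 and 326 in PKO-6 and 13.1, 19.2 and 23.8 in PKO-1, the latter in the range of TM6 (20.8, 13.4 and 21.9). D8Ertd82e was also lower in PKO-1 (10.7, 26.6 and 35.2) than in PKO-6 (224, 231 and 216). In each of these genes the libraries of the clones did not overlap, as the rule for naming them required.

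On chromosome 9, Thsd4, a gene for a protein of extracellular microfibrils, was high in PKO-6 (2039.8, 2038 and 1923) and rho0 (1176, 1080.3 and 1170.2) and low in PKO-1 (16.7, 19.2 and 10.3) and TM6 (38.04, 52.5 and 40.9). Col5a3, a collagen gene, was low in PKO-1 alone, with 3.57, 12.8 and 5.17 there, 171, 183 and 171 in PKO-6 and 353, 303 and 278 in TM6. Clmp, a cell adhesion gene, went against the chromosome, with 763, 687 and 734 in PKO-1, 57.3, 60.1 and 50.4 in PKO-6 and 798, 824 and 806 in TM6. Itga11, an integrin subunit gene that serves collagen binding, had 90.5, 89.5 and 124 in PKO-1 and 13.2, 14.5 and 12.6 in PKO-6. It met the minimum for named genes only through TM6 or rho0, whose values are not given here. Crabp1, which encodes a retinoic acid binding protein, had 125, 133 and 149.96 in PKO-1 and 24.6, 26.9 and 19.4 in PKO-6, both below its 754, 717 and 657 in TM6.

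On chromosome 13, the widest gap was at Dcdc2a (chr13:25056004-25210706, plus strand), whose promoter is shown above. It had 1138, 849.8 and 1267 normalized counts in PKO-6, 60.1, 83.1 and 61.4 in rho0, 1.19, 2.13 and 0 in PKO-1 and 0.865, 0 and 0.997 in TM6. PKO-6 was thus 1000.5 times PKO-1 (3517 counts against 3, exact 95% interval 342 to 4854), and it was PKO-6 that departed most from the parental level. Foxf2 (chr13:31625816-31631406, plus strand) went the other way, with 243, 272 and 239.9 in PKO-1, 252, 236 and 238 in TM6, 14.5, 12.2 and 12.3 in rho0 and 1.64, 1.04 and 0 in PKO-6. From 691 counts against 3, PKO-1 was 269.9 times PKO-6 (exact 95% interval 92.0 to 1312). Foxd1 (chr13:98354245-98356705, plus strand) was low in all derived lines, with 638, 623 and 536 in TM6, 21.3, 15.5 and 13.4 in rho0, 1.19, 0 and 0 in PKO-1 and 2.46, 11.4 and 4.85 in PKO-6. Its ratio of PKO-6 to PKO-1, 16.2 from 19 counts against 1, had an exact 95% interval of 2.58 to 674, and its call was lost when replicate 2 or 3 of PKO-1 (adjusted p = 0.0177 and 0.0179) or replicate 2 of PKO-6 (0.0124) was left out. Nkd2, which encodes a Wnt antagonist, had 410.3, 435 and 415 in PKO-6 and 7.14, 12.8 and 11.4 in PKO-1. The matrix genes Aspn and Tgfbi were higher in PKO-1. Aspn, a gene for a small proteoglycan that binds collagen, had 949, 782 and 862 in PKO-1, 45.9, 39.4 and 58.2 in PKO-6 and 1867, 2374 and 2351 in TM6. Tgfbi, which encodes an adhesion protein induced by TGF-beta, had 319, 265 and 356 in PKO-1, 15.6, 25.9 and 24.2 in PKO-6 and 1712, 1637 and 1498 in TM6, and both genes were higher in the parental line than in either clone.

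Among the members with the most counts, some were nearly level between the clones and others were not. On chromosome 8 they included Rpl13, a large ribosomal subunit gene, and Lamp1, a gene for the main lysosomal membrane protein. Lamp1 stood at 39679, 37766 and 36559 normalized counts in the PKO-1 libraries and at 34131, 36342 and 32916 in those of PKO-6. On chromosome 9 they were Eef1a1, Hspa8 and Pkm, for a translation elongation factor, a chaperone and pyruvate kinase. Hspa8 had 149519, 149127 and 136681 in PKO-1 and 139925, 148953 and 146505 in PKO-6, whose libraries overlapped, and Eef1a1 had 276247, 282364 and 253646 and 363858, 365499 and 340357, which did not. On chromosome 13 they were Rps23, Hnrnpk and Map1b. Rps23, a small ribosomal subunit gene, had 30426, 32275 and 28351 in PKO-1 and 47220.3, 47426 and 46269.9 in PKO-6. Ribosomal protein genes and Eef1a1 share reads with many processed copies and are uncertain.

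The comparison of rho0 with TM6 was not used to choose the chromosomes. It was tested over all 14026 genes that passed the low-count filter, all 1773 members among them. In it, loss of mitochondrial DNA cannot be told apart from the ditercalinium treatment or from the cell that founded rho0. Members of chromosome 8 were called lower more often than higher in rho0, with 87 of 630 higher (13.8%) and 171 lower (27.1%), beside 20.7% and 21.4% of all tested genes. Their median log2 fold change was -0.20, against 0.02 over all tested genes. Chromosome 9 had 127 of 662 higher (19.2%) and 136 lower (20.5%) and chromosome 13 had 95 of 481 higher (19.8%) and 97 lower (20.2%), shares near the background. Hand2, a transcription factor gene of heart and limb development, stood at 1526, 1534 and 1407 normalized counts in the parental line and was listed at 0 in every library of rho0, PKO-1 and PKO-6. At a floor of 3 counts over the group, TM6 was at least 1407-fold higher than rho0. Mmp2, which encodes gelatinase A, followed the same course, with 1574, 1479.8 and 1404 in TM6 and 0 in the 9 libraries of the derived lines, which put TM6 at least 1406-fold higher than rho0. Pitx1 and S1pr3 on chromosome 13, for a hindlimb transcription factor and a sphingosine-1-phosphate receptor, fell as well. Hand2, Mmp2, Pitx1 and S1pr3 met the minimums for members and for named genes only through TM6, so the size of their falls is a description. Pitx1 went from 514, 489 and 476 in TM6 to 0.969, 0 and 1.12 in rho0, a ratio of 699 from 1584 counts against 2 (exact 95% interval 193 to 5778). S1pr3 went from 503, 496 and 474 in TM6 to 15.5, 5.54 and 7.82 in rho0, with a log2 fold change of -5.62 ± 0.26 (SE).

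Other members rose in rho0. Nlrc5, the transactivator of MHC class I genes, stood at 98.6, 76.4 and 94.7 normalized counts in TM6, 1508, 2105 and 1994 in rho0, 190.5, 208 and 222 in PKO-1 and 1641, 1346 and 1634 in PKO-6 (rho0 against TM6 log2 fold change 4.37 ± 0.15 (SE), adjusted p = 1.76e-11, edgeR). PKO-6 was at the level of rho0 and PKO-1 was nearer to TM6. Angptl6, for an angiopoietin-like secreted factor, showed the same split, with 86.2, 56.5 and 42.5 in TM6, 2581, 2588 and 2574 in rho0, 103, 109.9 and 115 in PKO-1 and 1638, 1168 and 1371 in PKO-6 (5.36 ± 0.18 (SE), adjusted p = 1.31e-11, edgeR). Hapln4, for a proteoglycan link protein, had 25.9, 20.1 and 23.9 in TM6 and 867, 821 and 803 in rho0 (5.14 ± 0.12 (SE), adjusted p = 8.31e-13, edgeR), with PKO-6 (698, 639 and 598) again above PKO-1 (179.8, 168 and 202). Mei4, a gene of meiotic recombination, had 6.99, 9.59 and 5.99 in TM6 and 417, 353 and 382 in rho0 (5.66 ± 0.20 (SE), adjusted p = 1.94e-11, edgeR). Naip2, a sensor gene of innate immunity, had 12.99, 8.16 and 14.997 in TM6 and 295, 279 and 263 in rho0, and Dcdc2a had 2 counts over the TM6 libraries and 192 over those of rho0, a ratio of 109 (exact 95% interval 29.7 to 904). Sorl1, for a sorting receptor, and Pknox2, for a homeodomain factor, fell on chromosome 9. Sorl1 had 472, 454 and 393 in TM6 and 3.87, 8.86 and 13.4 in rho0 (-5.67 ± 0.25 (SE), adjusted p = 1.68e-10, edgeR), and Pknox2 had 497, 446 and 469 and 19.4, 16.6 and 18.98 (-4.67 ± 0.23 (SE), adjusted p = 4.98e-10, edgeR).

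The mean of the clones against TM6 averages the knockout lines and does not show what they share, and it uses the same TM6 libraries as the comparison above. On chromosome 8, 46 members were called higher (7.30%) and 181 lower (28.7%), beside 17.6% and 17.4% of all tested genes (35.0% in either direction). Chromosome 9 had 63 higher (9.52%) and 175 lower (26.4%), and chromosome 13 had 54 higher (11.2%) and 88 lower (18.3%). Of the 18 members at the start of chromosome 9, 7 were called higher and 3 lower, although PKO-1 alone had 1 higher and 7 lower there and PKO-6 alone 13 higher and 1 lower. Members of chromosome 9 called lower rest on PKO-1 more than on PKO-6: PKO-1 alone had 255 lower than TM6 and PKO-6 alone 131, and this difference between the clones is the one that chose the chromosome.

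Of the gene groups that lie on these chromosomes, some were called against TM6 more often than all tested genes and others were not. The shares over all tested genes were 17.6% higher and 17.4% lower in the mean of the clones and 20.7% and 21.4% in rho0, and the counts below are read beside them. Members that met the minimum count only through TM6 could hardly be called higher than TM6, and the lists were not cleared of them. For PKO-1 against PKO-6 they were 11.5% and 17.6%. That contrast chose the chromosomes, so nothing is read from its counts in the groups below. All 7 members for sterol metabolism were called lower in the mean of the clones (median log2 fold change -2.12) and 6 of 7 in rho0 (-1.76). The medians over all tested genes were 0.00 and 0.02. This list was chosen with earlier results of these data known. Hmgcs1 on chromosome 13, for the cytosolic HMG-CoA synthase of cholesterol synthesis, stood at 17272, 19055 and 18934 normalized counts in TM6, 3571, 3525 and 3549 in rho0, 3388, 3099 and 3539 in PKO-1 and 2093, 2310.1 and 2326 in PKO-6. Between the clones 1 of the 7, Hmgcs1, was called, as higher in PKO-1.

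Matrix, adhesion and cytoskeletal genes had 2 of 18 called higher and 10 lower in the mean of the clones, beside 17.6% and 17.4% of all tested genes, and 3 higher and 9 lower in rho0, beside 20.7% and 21.4%. Tpm1 on chromosome 9, for a tropomyosin of actin filaments, stood at 47507, 54231 and 53965 normalized counts in TM6, 11815, 10793 and 11228 in rho0, 15838, 15875 and 15032 in PKO-1 and 11789, 14025 and 14045 in PKO-6 (mean of the clones -1.85 ± 0.06 (SE), adjusted p = 1.12e-11, edgeR). On chromosome 8, 5 of the 6 listed members were called higher in PKO-1 than in PKO-6 (Col4a1, Col4a2, Palld, Tpm4 and Cdh13), beside 32.5% of all members there. Palld, for an actin-bundling protein, had 11257, 11372 and 11929.7 in PKO-1, 3402, 3880.2 and 3400.3 in PKO-6 and 10934, 11435 and 10794 in TM6. Tgfbi and the chromosome 9 genes Ncam1, Col12a1 and Tagln were called higher in PKO-1 too, against the median of their chromosome. Tagln, for a smooth-muscle actin-binding protein, had 5735, 6198 and 6219 in TM6, 579, 433 and 480.2 in rho0, 362, 377 and 321 in PKO-1 and 106, 90.2 and 120.2 in PKO-6. Of 7 matrix protease genes, 2 were called higher and 3 lower in the mean of the clones and 1 higher and 4 lower in rho0, and Ctsl, for the lysosomal cathepsin L, was the highest of them and rose (1.04 ± 0.06 (SE), adjusted p = 2.81e-09 in the mean of the clones, edgeR).

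Growth factor signalling and developmental transcription factor genes fell more often than they rose, with 3 of 37 called higher and 20 lower in the mean of the clones (17.6% and 17.4% of all tested genes) and 3 higher and 18 lower in rho0 (20.7% and 21.4%). The list holds Sfrp1, which met the minimum for members only through TM6, so these counts are a description. Nfix, a nuclear factor I gene on chromosome 8, stood at 28077, 27434 and 25803 normalized counts in TM6, 15319.6, 13253 and 13406 in rho0, 20536, 21484 and 21218 in PKO-1 and 9532, 10453 and 8484 in PKO-6. Between the clones 9 of the 37 were higher and 14 lower in PKO-1, beside 11.5% and 17.6% of all tested genes. Those that went against their chromosome were Ier2, Foxf1 and Sfrp1 on chromosome 8 and Foxc1, Mef2c, Foxf2, Id4 and Fst on chromosome 13. Foxc1, a forkhead factor gene that neighbours Foxf2, had 9502, 9294 and 9817 in PKO-1, 3913, 4264 and 3892 in PKO-6 and 7476, 7093 and 6918 in TM6. Of 32 genes for cell cycle and DNA repair, 1 was called higher and 5 lower in the mean of the clones and 3 higher and 9 lower in rho0, beside 17.4% and 21.4% of all tested genes called lower. On chromosome 8, 6 of 8 were called higher in PKO-1 than in PKO-6, beside 32.5% of all members there. Among them was Mcm5, a subunit gene of the replicative helicase, with 7638, 7804 and 7408 against 5231, 5384 and 4769.6. Of 16 genes for apoptosis and innate immunity, 2 were called higher and 4 lower in the mean of the clones and 2 and 4 in rho0.

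Among 30 genes for mitochondrial proteins encoded in the nucleus, 1 was called higher and 5 lower in the mean of the clones, and 1 higher and 7 lower in rho0. The shares called lower were near those of all tested genes (17.4% and 21.4%). Slc25a4, for the ADP/ATP carrier, stood at 16629, 17992 and 17291 normalized counts in TM6, 10531, 8406 and 9103 in rho0, 12324, 12852 and 11629.7 in PKO-1 and 5938, 6301 and 5442 in PKO-6. The gene that rose was Gpt2, for mitochondrial alanine aminotransferase, with 1934, 1932 and 1792 in TM6, 9810.1, 8259 and 8713 in rho0, 4347, 4448 and 4076 in PKO-1 and 8437, 8588 and 7361 in PKO-6 (2.24 ± 0.08 (SE), adjusted p = 1.93e-11 in rho0, edgeR). Metallothionein and oxidative stress genes had 1 of 15 called higher and 7 lower in the mean of the clones and 8 of 15 lower in rho0. Mt2, a metallothionein gene on chromosome 8, was higher in PKO-6 (3018, 3867 and 3002) than in PKO-1 (1440.4, 1193 and 1472), against the median of the chromosome. Of 10 cytosolic ribosomal protein genes, edgeR and DESeq2 each called 0 in the mean of the clones, where 6 had an unadjusted p below 0.05, and edgeR called 3 higher in rho0. The Hist1 genes had 5 of 50 called lower in the mean of the clones by edgeR (17.4% of all tested genes were), and DESeq2 called 11.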

How the data were processed

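RNA of 12 cultures (4 lines, 3 each) was sequenced by the authors, who, per the labels, merged technical duplicate libraries and made gene-level estimated (expected) counts and TPM with RSEM 1.2.25 (bcl2fastq, Bowtie and Bowtie2 are also named, builds mm10 and GRCm38, DESeq2 1.18.1 for their own tests). The expected counts as deposited had decimals in 12.5% of values and were rounded to whole numbers; the deposited TPM served for markers. Gene coordinates are those of the authors' transcript files, and 4 symbols also placed on another sequence were left out. The members and gene lists were chosen with earlier results of these data known.

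Library totals of 47164860 to 67991378 counts set the counting precision. Counts were fitted with edgeR 4.0.16 in R 4.3.3 over all 4 lines (quasi-likelihood test, TMM scaling, filterByExpr with a minimum count of 10, 14026 genes, Benjamini-Hochberg adjustment, biological coefficient of variation 0.0837). A gene was called where the adjusted p was below 0.01 and the log2 fold change exceeded 0.5 in size. Log2 ratios and folds are of mean TMM-normalized counts with 0.5 added, and medians were taken over members in 10 Mb windows with at least 5 members by midpoint. Intervals and floors (3 counts over the group) cover counting error only. Replicates are cultures of 1 clone. Fits were tested on simulated data. Summaries used Python 3.11.15.

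Named were, per chromosome, the 3 members that differed most in each direction between PKO-1 and PKO-6, and the 2 that did between rho0 and TM6, among called members with a mean of 100 or more normalized counts and no overlap; the 3 with the most counts; and examples from gene lists (those with the most counts and those called against the chromosome median). Gm and Rik models were passed over. Some genes that met these rules are not reported here. The members at the start of chromosome 9 and next to the boundary on chromosome 13 were named after their values were seen.

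The labels number the replicates 1 to 3 in every line, with no shared litter or day stated. Deviations of same-numbered libraries from their group means correlated at -0.16, 0.18 and 0.12 (PKO-1 and PKO-6), -0.22, -0.39 and 0.14 (rho0 and TM6), -0.22, 0.24 and 0.04 (PKO-1 and TM6) and 0.25, 0.25 and 0.21 (PKO-6 and TM6), so, of these 4 pairs of lines, the numbers paired samples by the limit of 0.1 in every pair for PKO-6 and TM6. Pairing with rho0 was not computed for the clones. Alternatives were DESeq2 1.42.0 (size factors and Wald test), TMM outside the 3 chromosomes, no filter, other count minimums, window sizes and call rules, a replicate block, only the compared groups, and leaving out each library.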

Additional observations from a re-analysis of the deposited data

Results flagged for a closer look

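In 10 cases every PKO-1 library lay on one side of a reference line and every PKO-6 library on the other. The difference between the clones chose the chromosomes and was not tested, and the stretches within chromosomes 9 and 13 were set after their values had been seen. All values are median log2 ratios over members.

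On chromosome 8 the PKO-1 libraries were at 0.11, 0.10 and 0.08 against rho0 and the PKO-6 libraries at -0.26, -0.22 and -0.30, and PKO-1 against PKO-6 was 0.34. On chromosome 13, where PKO-1 against PKO-6 was -0.37, the PKO-1 libraries were at -0.25, -0.26 and -0.30 against TM6 and at -0.29, -0.34 and -0.35 against rho0. The PKO-6 libraries were at 0.04, 0.04 and 0.06 against TM6 and at 0.00, 0.04 and 0.01 against rho0, so that their side of 0 rests on differences of a few hundredths.

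In the first 10 Mb of chromosome 9, with -1.04 for PKO-1 against PKO-6, the PKO-1 libraries were at -0.25, -0.36 and -0.41 against TM6 and at -0.17, -0.19 and -0.22 against rho0. The PKO-6 libraries were at 0.86, 0.89 and 1.01 against TM6 and at 0.96, 1.02 and 0.96 against rho0. On chromosome 13 up to 100 Mb, with -0.44, the PKO-1 libraries were at -0.30, -0.29 and -0.35 against TM6 and at -0.35, -0.39 and -0.41 against rho0, and the PKO-6 libraries at 0.06, 0.05 and 0.09 and at 0.03, 0.07 and 0.01.

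After 100 Mb of chromosome 13 the sides were exchanged at small values, with 0.073 for PKO-1 against PKO-6. There the PKO-1 libraries were at 0.12, 0.07 and 0.04 against TM6 and the PKO-6 libraries at -0.04, -0.06 and -0.04. Among the 28 members between 20 and 30 Mb that are not Hist1 genes, with -0.67, the PKO-1 libraries were at -0.18, -0.22 and -0.26 against TM6 and at -0.57, -0.56 and -0.60 against rho0. The PKO-6 libraries were at 0.49, 0.40 and 0.58 against TM6 and at 0.07, 0.02 and 0.09 against rho0.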

How the results depend on the processing

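The medians of PKO-1 against PKO-6 kept their sign on chromosomes 8, 9 and 13 under every alternative run. On chromosome 8 (0.34) the median was 0.30 at a mean count of 10 or more, and the mean over members was 0.27. On chromosome 9 (-0.36) it was -0.38 with TMM outside the 3 chromosomes and -0.32 at a mean count of 200 or more, and the mean was -0.50. On chromosome 13 (-0.37) it was -0.41 at a mean count of 10 or more, the mean was -0.33, and with alternatives chosen after seeing the data it was -0.44 without the Hist1 genes and -0.44 up to 100 Mb. Leaving out any 1 library gave 0.32 to 0.36, -0.37 to -0.35 and -0.40 to -0.35. The last 10 Mb window of chromosome 13 (0.037) joined unlike parts. In windows of 5 Mb, 110 to 115 Mb was at 0.19 and the last window at -0.032, so the sign at the end is not settled. The cause of these shifts was not tested.

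The counts of called members per chromosome in both directions together moved by more than 1.5 times only with the call rule, by construction. In single directions, a mean count of 200 or more, which leaves fewer members, took those lower in PKO-1 than PKO-6 on chromosome 8 from 44 to 28 and those higher in the mean of the clones on chromosome 9 from 63 to 41. The Hist1 calls in the mean of the clones were 5 by edgeR and 11 by DESeq2. With an adjusted p below 0.01 alone and with an absolute log2 fold change above 1, edgeR called for PKO-1 against PKO-6 418 and 60 members on chromosome 8 (249 as reported), 420 and 89 on chromosome 9 (256) and 324 and 68 on chromosome 13 (209). For rho0 against TM6 the numbers were 431 and 102 (258), 425 and 103 (263) and 295 and 65 (192), and for the mean of the clones 420 and 76 (227), 437 and 93 (238) and 293 and 47 (142). With the replicate block the counts were 249, 256 and 211 for PKO-1 against PKO-6, 257, 264 and 196 for rho0 against TM6 and 229, 239 and 144 for the mean of the clones. For PKO-6 against TM6, where the numbers paired the samples, the block left 341 and 259 calls on chromosomes 8 and 9 and moved 183 to 186 on chromosome 13, and no gene named between PKO-1 and PKO-6 or between rho0 and TM6 lost its call. Leaving out 1 library ended the call of Foxd1 between the clones in 3 of 12 cases and of no other gene named there. That each derived line is 1 clone, that DNA copy number was not measured and that genes under 50 counts were left out limit what the values show.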
